A study of Mus musculus with 4 samples.

Results

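The genes described here are 10 members of the Hippo pathway and its nuclear output: the coactivator genes Yap1 and Wwtr1, the DNA-binding factor genes Tead1, Tead2, Tead3 and Tead4, the kinase genes Lats1 and Lats2, and the target or regulator genes Ankrd1 and Amotl2. They were taken by symbol, and every probe set that the array annotation gives to exactly 1 of them was kept, which gave 22 probe sets for 10 of the 18193 genes with such a probe set. RNA was measured in C2C12 cells, a mouse myoblast line, stably transduced with the lentiviral vector pLKO.1. The 2 SFMBT1 knockdown cultures expressed a short hairpin RNA (shRNA) against Sfmbt1, a gene for a chromatin protein with MBT repeats. The 2 control cultures expressed a control shRNA that the labels call scrambled in one field and shLuc in another. All 4 cultures grew in serum-rich medium with puromycin, were described as independently cultured, and were hybridised to 1 Affymetrix array each. The labels name only 1 hairpin against Sfmbt1, and they do not say whether a group's cultures stem from more than 1 transduction. The p-values therefore measure the spread between these cultures, which may be small if a group shares 1 transduction.

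In the Hippo pathway the kinases LATS1 and LATS2 phosphorylate YAP (from Yap1) and TAZ (from Wwtr1), which keeps these coactivators out of the nucleus. Unphosphorylated YAP and TAZ enter the nucleus and bind TEAD factors, which do most of their DNA binding. TEAD proteins recognise the MCAT element, whose core reads GGAATG or its complement CATTCC, and which is found in promoters of several muscle genes. In cultured mouse myoblasts active YAP is known to favour proliferation over differentiation. Much of this control acts on protein phosphorylation and location, which an RNA array does not measure.

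The median signal was 92.8 and 101.1 on the knockdown arrays and 97.8 and 102.7 on the control arrays. The limit of the background range on each array, taken from 27 bacterial controls at their 95th percentile, was a signal of 69.3 and 42.9 on the knockdown arrays and 49.1 and 53.2 on the control arrays. Sfmbt1 had a lower signal on both knockdown arrays than on both control arrays in all 5 of its probe sets. In the 4 that were tested the knockdown mean was 17.4% to 69.2% of the control mean, and 1 of them passed (1422894_at, 45.3 ± 41.4 in the knockdown against 259.8 ± 25.6 in the control, SD, n = 2 each; limma adjusted p = 0.0219). In that probe set knockdown replicate 2 lay in the background range. Markers, like all genes, were taken by their brightest probe set, and over all genes 2.17% were called in either direction. Of 6 myoblast markers fixed for this work (Myod1, Myf5, Des, Cdh15, Chrna1 and Itga7) 0 passed. Their summed signal, in which the bright Chrna1 and Des weigh most, was 18130 and 18840 in the knockdown against 17980 and 20230 in the control. The log2 differences (knockdown minus control) were -0.31 for Myod1, -0.23 for Myf5, -0.16 for Cdh15, -0.27 for Itga7, 0.21 for Des and 0.03 for Chrna1, with a median of -0.20. The groups of arrays did not overlap in 5 of the 6, against 45.6% of all probe sets tested, a share not limited to brightest ones. Markers of differentiating muscle moved with the groups: 6 of 7 rose (Myog, Mymk, Myh3, Tnnt1, Tnnc2 and Mylpf). Over all genes, each taken by its brightest probe set, 1.02% were called higher. For Ckm, the remaining marker, the groups overlapped (log2 difference 0.38, limma adjusted p = 0.567). The summed signal of the 7 was 4854 and 5404 in the knockdown against 1285 and 923.6 in the control. The fat cell markers Adipoq and Lep, the endothelial markers Pecam1 and Tie1, the leukocyte markers Ptprc and Cd3e and the bone marker Dmp1 lay in the background range on all 4 arrays. Other markers of these types were detected: Sp7 of bone, Kdr of endothelium, and Cd68 and Adgre1 of leukocytes lay above the limit on all 4 arrays, and Fabp4, Ibsp and Cdh5 on 3. Of the 6 of these that were tested 0 passed (2.17% over all genes). Kdr read 211.8 and 193.4 in the knockdown against 281.1 and 269.8 in the control. The summed signal was 165.1 and 159.5 in the knockdown against 132.4 and 109.7 in the control for fat cell markers and 370.6 and 265.7 against 357.9 and 247.9 for bone markers. It was 322.7 and 301.6 in the knockdown against 378.7 and 326.4 in the control for endothelial markers and 243.2 and 346.1 against 344.4 and 363.1 for leukocyte markers. Lower RNA per cell and fewer cells of a given state cannot be told apart in these cultures, and the part of differentiation or of other cell types in the values below was not tested.

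None of the 10 genes passed the test in either direction when Sfmbt1 was knocked down. Signals were compared as log2(signal + 16) with limma, and 18 of the 22 probe sets, at least 1 for each gene, passed a filter on dim signal. At an adjusted p under 0.05, over all 22893 probe sets tested, 0 of these 18 were higher and 0 lower, against 2.39% of all probe sets tested called in either direction (0.961% higher and 1.43% lower). At an unadjusted p under 0.05 there were 2 of 18, against 15.5% of all. The groups of arrays did not overlap in 9 of 18, against 45.6% of all: 8 were lower in the knockdown (24.0% of all) and 1 was higher (21.6% of all). In log2 units 13 of the 18 differences (knockdown minus control) were negative, against 50.7% of all, and the count of negative differences was also 13 after each array was centred on its median and after quantile normalization. It was 12 to 14 of 18 with 1 array left out, 7 of 11 without probe sets shared between transcripts, and 5 of 10 with 1 probe set a gene. Their median was -0.16, beside -0.0052 over all probe sets tested. Fold changes on this scale understate the change of dim genes. A test of 2 against 2 arrays has little power for a single gene, where an exact permutation test cannot go below 0.333. The 95% interval of the difference lay within 1 log2 unit (2-fold) of 0 in 16 of the 18 probe sets, and reached beyond it for 1 probe set each of Tead1 and Tead4.

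**Figure D1:**
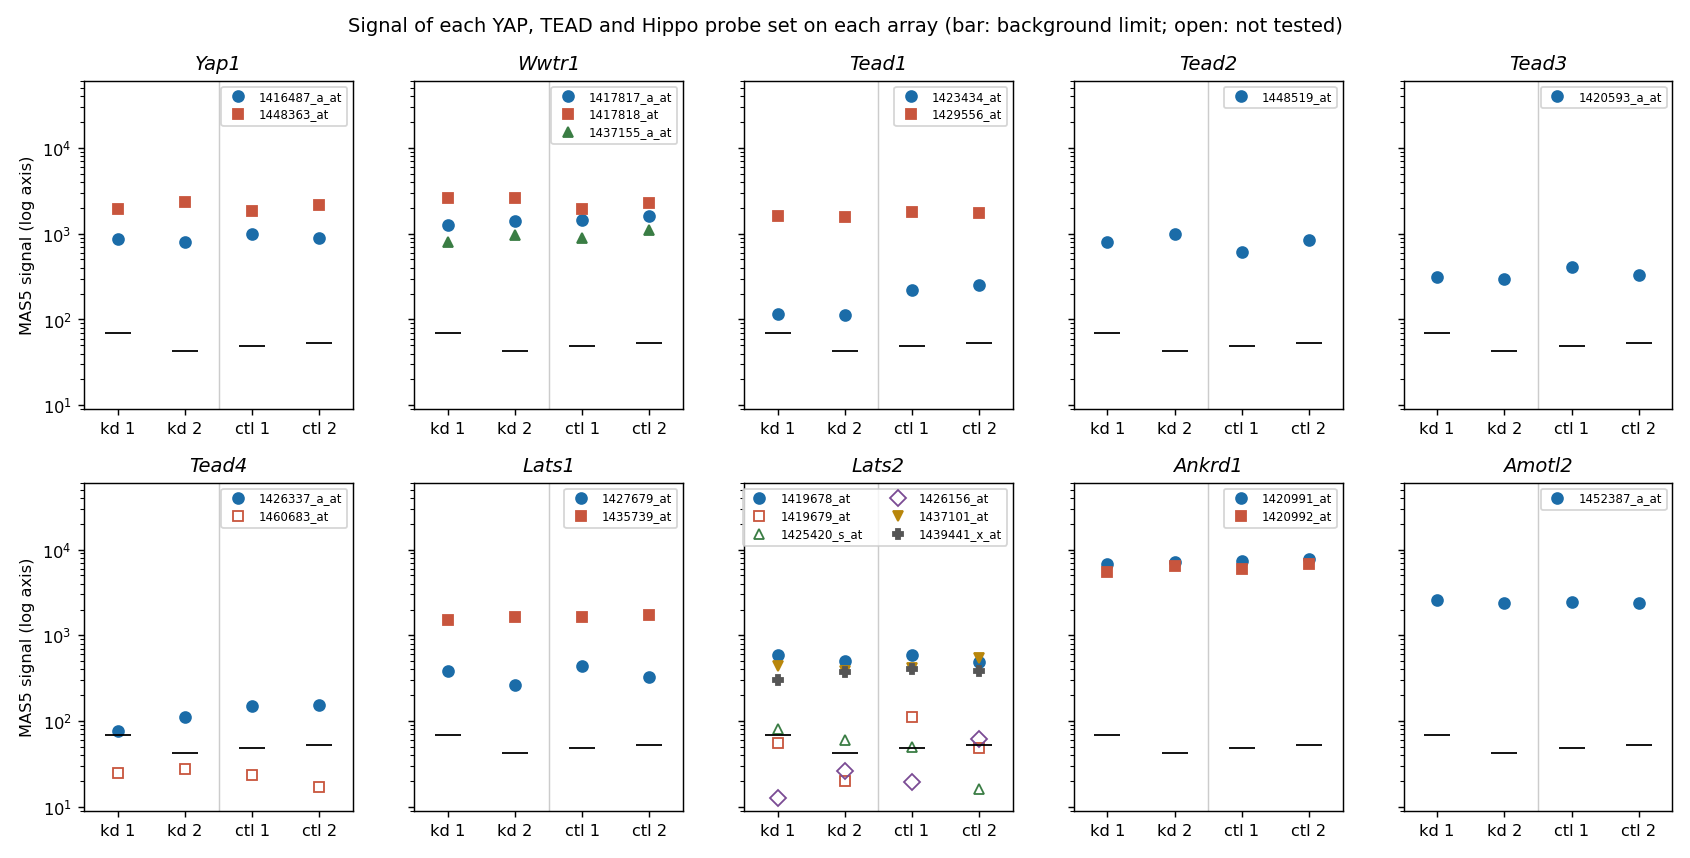
MAS5 signal (log axis) of all 22 probe sets on each array, with 1 panel per gene, the SFMBT1 knockdown arrays (kd 1 and 2) left of the control shRNA arrays (ctl 1 and 2), filled symbols for tested and open symbols for untested probe sets, and a short bar at each array's background limit. Most filled symbols stay level across the 4 arrays, while Tead1 probe set 1423434_at lies at 115.8 and 112.8 in the knockdown, below 218.3 and 251.0 in the control.

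The coactivator genes showed small differences whose sign depended on the probe set. Yap1 encodes YAP, and its probe set 1448363_at read 1923.6 and 2353.5 in the knockdown against 1829.7 and 2137.4 in the control. Its other probe set, 1416487_a_at, read 856.7 and 809.0 in the knockdown against 979.0 and 900.3 in the control. The groups overlapped in the first and lay narrowly apart in the second. The log2 difference was 0.10 (SE 0.14, 95% interval -0.21 to 0.42, limma adjusted p = 0.789) and -0.17 (SE 0.14, 95% interval -0.48 to 0.14, limma adjusted p = 0.620). Neither interval went below -0.48 or above 0.42.

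Wwtr1 encodes TAZ, the paralogue of YAP, and 1 of its 3 probe sets went the other way from the rest. Probe set 1417818_at read 2610.5 and 2629.9 in the knockdown against 1951.2 and 2277.6 in the control, with both knockdown arrays above both controls. Probe set 1417817_a_at read 1245.7 and 1394.6 in the knockdown against 1442.0 and 1589.3 in the control, with both knockdown arrays below both controls. Probe set 1437155_a_at read 806.6 and 964.9 in the knockdown against 878.1 and 1109.9 in the control, and there the groups overlapped. The log2 differences were 0.31 (SE 0.13, 95% interval 0.03 to 0.59), -0.20 (SE 0.13, 95% interval -0.49 to 0.10) and -0.16 (SE 0.16, 95% interval -0.51 to 0.20). None passed, with limma adjusted p = 0.264, 0.531 and 0.702.

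Among the TEAD factor genes Tead1 came nearest to a call, in the dimmer of its 2 probe sets. TEAD1 is a founding member of the family and a known MCAT-binding factor of muscle. Probe set 1423434_at read 115.8 and 112.8 in the knockdown against 218.3 and 251.0 in the control, so that the knockdown mean of 114.3 ± 2.12 stood at 48.7% of the control mean of 234.7 ± 23.1 (SD, n = 2 each). All 4 values lay above the background limit of their array. The log2 difference was -0.94 (SE 0.25, 95% interval -1.48 to -0.40, limma adjusted p = 0.0748), just outside the threshold. It passed without knockdown replicate 1 (-0.96, adjusted p = 0.0399), without knockdown replicate 2 (-0.92, adjusted p = 0.0465) and with the filter at the upper 40% (adjusted p = 0.0393), and over all the alternatives its adjusted p ran from 0.0393 to 0.289. Without control replicate 1 or 2 the adjusted p was 0.176 and 0.289. A fit without 1 array leaves a group of 1, whose spread is taken to be that of the other group, and without knockdown replicate 1 or 2 the calls over all probe sets were 1429 and 1359, against 548 with all 4 arrays. A pass in such a fit, here and for the genes below, is therefore not added support. The brighter probe set, 1429556_at, read 1623.2 and 1549.8 in the knockdown against 1786.7 and 1742.7 in the control. That was also lower on both knockdown arrays, but by only -0.15 log2 units (SE 0.12, 95% interval -0.43 to 0.12, limma adjusted p = 0.615). The interval of this probe set did not reach the -0.94 of the other, but the intervals of the 2 probe sets overlapped.

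The remaining TEAD genes had no call. Tead4, a gene known to be bound by myogenic factors during myoblast differentiation, read 75.8 and 112.4 in the knockdown against 150.6 and 155.7 in the control (1426337_a_at). Both knockdown values were under both controls, and the first was close to that array's background limit of 69.3. Its log2 difference was -0.64 (SE 0.31, 95% interval -1.31 to 0.04, limma adjusted p = 0.352), and it was -0.40 without knockdown replicate 1 and -0.88 without knockdown replicate 2. A second Tead4 probe set, 1460683_at, stayed between 17.3 and 27.5 on the 4 arrays, in the background range, and was not tested. Tead3 read 310.1 and 292.9 in the knockdown against 413.7 and 326.7 in the control, without overlap (log2 difference -0.27, SE 0.19, 95% interval -0.69 to 0.15, limma adjusted p = 0.543). Tead2 was the only TEAD gene with a positive difference in a tested probe set. It read 807.8 and 983.0 in the knockdown against 617.1 and 852.4 in the control, where the groups overlapped (log2 difference 0.29, SE 0.18, 95% interval -0.10 to 0.68, limma adjusted p = 0.478), and with 1 array left out the difference was 0.063 to 0.52.

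**Figure D2:**
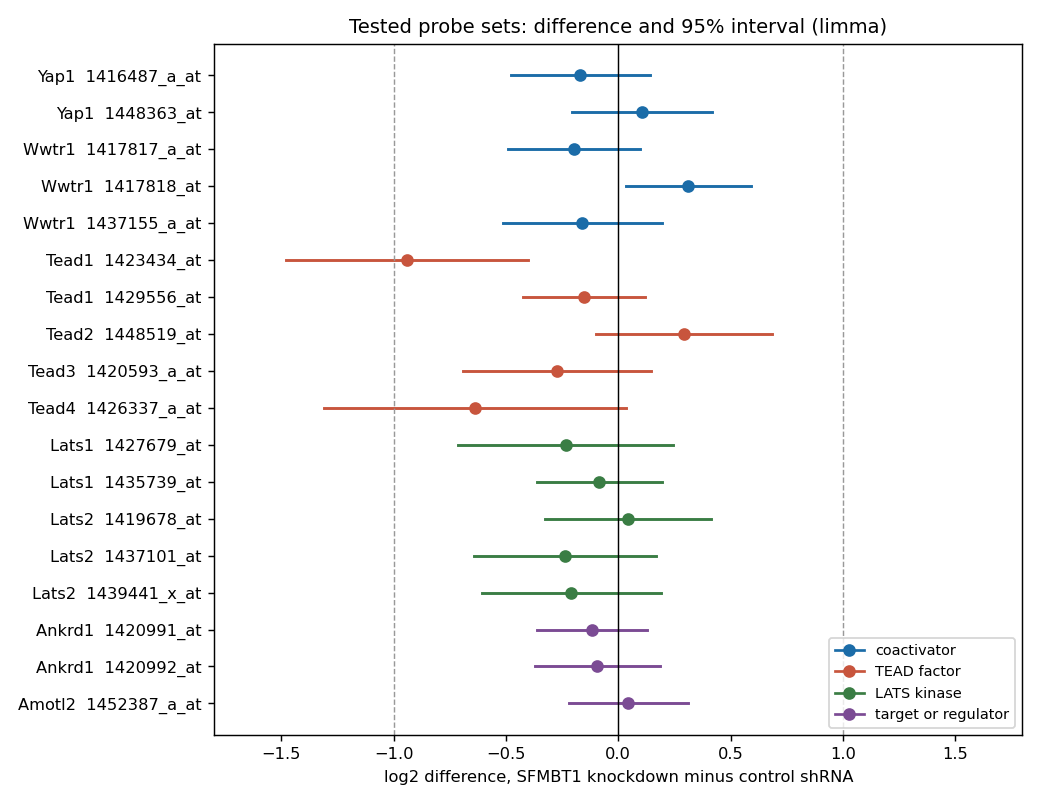
Log2 difference of signal (SFMBT1 knockdown minus control shRNA, points) with its 95% limma interval (lines) for the 18 tested probe sets, coloured by role, with dashed lines at 1 log2 unit either side of 0. The intervals of Tead1 probe set 1423434_at (-1.48 to -0.40) and Tead4 (-1.31 to 0.04) extend past the left dashed line, and the other 16 stay between the dashed lines.

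The LATS kinase genes had no call, and the log2 differences of their 5 tested probe sets lay between -0.24 and 0.04. LATS1 and LATS2 are the kinases that phosphorylate YAP and TAZ, and Lats2 is itself a known YAP target in a feedback loop. Lats1 probe set 1435739_at read 1509.1 and 1635.1 in the knockdown against 1626.0 and 1708.3 in the control. Probe set 1427679_at read 382.8 and 266.2 in the knockdown against 433.8 and 330.5 in the control. The groups overlapped in both, with log2 differences of -0.085 (95% interval -0.36 to 0.19, limma adjusted p = 0.815) and -0.23 (95% interval -0.71 to 0.24, limma adjusted p = 0.667).

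Lats2 had 6 probe sets, of which 3 were bright enough to test. Probe set 1419678_at read 596.3 and 507.2 in the knockdown against 582.6 and 487.9 in the control (log2 difference 0.04, 95% interval -0.33 to 0.41, limma adjusted p = 0.939). Probe set 1437101_at read 434.6 and 379.4 in the knockdown against 419.7 and 551.6 in the control (log2 difference -0.24, 95% interval -0.64 to 0.17, limma adjusted p = 0.596). In both of these the groups overlapped. Probe set 1439441_x_at read 305.5 and 371.1 in the knockdown against 400.0 and 383.6 in the control, without overlap (log2 difference -0.21, 95% interval -0.61 to 0.19, limma adjusted p = 0.641), and its name marks it as open to signal from other transcripts. The 3 untested probe sets lay between 12.8 and 111.3, around the background limits, and did not share a direction. The annotation gives one more probe set, 1421055_at, to both Xpo4 and Lats2. It was left out of the members and read 652.9 and 690.9 in the knockdown against 762.8 and 794.3 in the control.

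The target or regulator genes Ankrd1 and Amotl2 had differences close to 0 with narrow intervals. Ankrd1 encodes a muscle ankyrin repeat protein and is one of the most used readouts of YAP activity. Its probe set 1420991_at read 6691.7 and 7085.4 in the knockdown against 7257.1 and 7674.2 in the control, and 1420992_at read 5462.0 and 6461.6 in the knockdown against 5909.9 and 6792.4 in the control. The groups lay apart in the first and overlapped in the second, with log2 differences of -0.12 (SE 0.11, 95% interval -0.36 to 0.13, limma adjusted p = 0.681) and -0.093 (SE 0.13, 95% interval -0.37 to 0.19, limma adjusted p = 0.792). Amotl2 encodes an angiomotin family protein that binds YAP and is also a YAP target. It read 2603.0 and 2389.9 in the knockdown against 2423.1 and 2411.4 in the control, with overlap (log2 difference 0.04, SE 0.12, 95% interval -0.22 to 0.31, limma adjusted p = 0.909). None of the 3 intervals went below -0.37 or above 0.31.

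The promoters of these readout genes are shown because both carry the core that TEAD factors recognise. They are the 250 bases upstream of the start in RefSeq (GRCm38.p6), 5′ to 3′ on the gene's strand, with GGAATG or CATTCC in capitals. The Ankrd1 stretch is chr19:36119845-36120094 (minus strand) and the Amotl2 stretch is chr9:102717554-102717803 (plus strand).
Ankrd1: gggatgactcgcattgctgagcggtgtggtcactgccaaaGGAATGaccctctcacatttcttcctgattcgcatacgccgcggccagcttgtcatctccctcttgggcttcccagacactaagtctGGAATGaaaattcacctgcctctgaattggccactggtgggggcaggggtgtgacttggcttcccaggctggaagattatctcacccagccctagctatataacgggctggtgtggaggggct
Amotl2: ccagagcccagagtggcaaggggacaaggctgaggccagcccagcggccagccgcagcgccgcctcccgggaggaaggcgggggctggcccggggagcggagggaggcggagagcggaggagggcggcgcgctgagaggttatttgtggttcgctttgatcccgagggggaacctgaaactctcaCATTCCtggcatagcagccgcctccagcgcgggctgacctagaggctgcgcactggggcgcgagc

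Windows of 300 bases, with 250 bases before and 50 after each start, were searched on both strands. The table held 12 such windows for 8 of the 10 genes. The MCAT core (GGAATG or CATTCC) was present in 8 of the 12 windows and in at least 1 window of 6 genes (Yap1, Wwtr1, Tead3, Lats2, Ankrd1 and Amotl2), beside 14.7% of all 32851 windows. Some of the windows of Wwtr1, Tead3 and Lats2 are alternative starts of 1 gene, and those of Wwtr1 overlap each other, as do those of Tead3. The Ankrd1 window held 2 cores and the Amotl2 window 1. The E-box CANNTG, bound by MyoD and myogenin, was present in 4 of the 12 windows, for Yap1, Lats2 and Ankrd1, beside 72.3% of all windows. No E-box overlapped an MCAT core in the windows of these genes. A match describes the letters only and does not show that a factor binds there.

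Probe sets of the same gene were also compared within each array, which leaves out differences in scale between arrays. Of 8 such pairs, 3 had groups that did not overlap, 2 of Wwtr1, which share 1417818_at, and 1 of Tead1. Over all genes 43.7% of such pairs had groups that did not overlap. The log2 signal of Tead1 1423434_at minus that of 1429556_at was -3.64 and -3.60 on the knockdown arrays against -2.94 and -2.72 on the control arrays, a shift of -0.79. For Wwtr1, 1417817_a_at minus 1417818_at was -1.06 and -0.91 on the knockdown arrays against -0.43 and -0.52 on the control arrays, a shift of -0.51. The other Wwtr1 pair, 1437155_a_at minus 1417818_at, shifted by -0.47. Each of the 3 had a two-sided exact permutation p of 0.333, the smallest that 2 against 2 arrays can give, and 0.762 after Benjamini-Hochberg adjustment over the 8 pairs. The other 5 pairs (Yap1, Lats1, Lats2 and Ankrd1) overlapped.

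**Figure D3:**
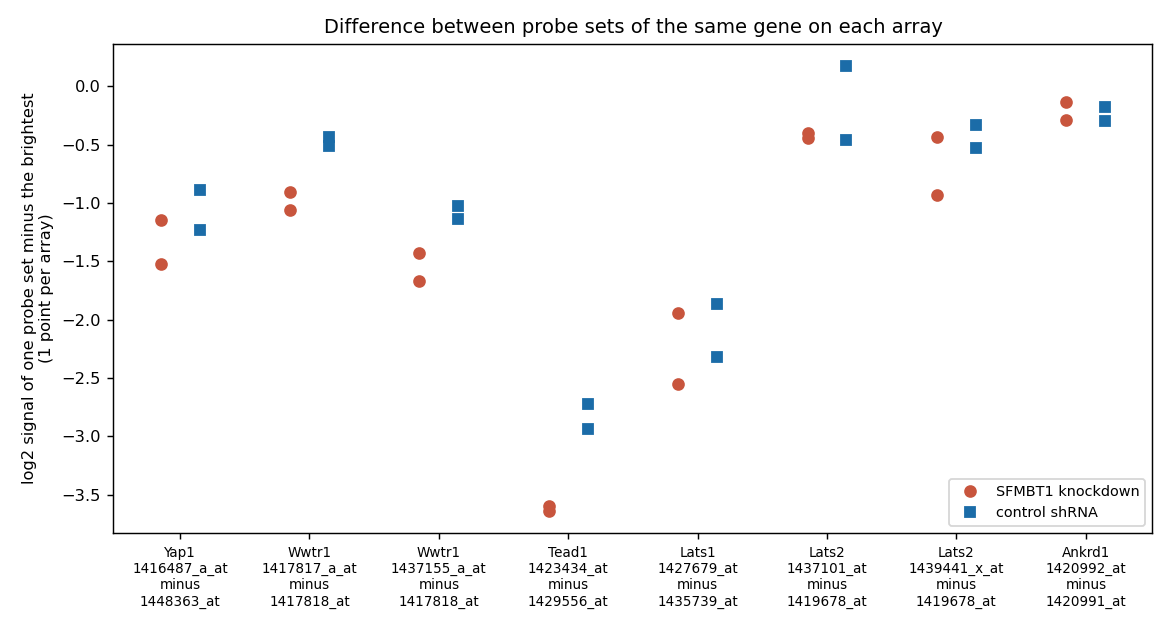
Log2 signal of 1 probe set minus that of the brightest tested probe set of the same gene, with 1 point per array, SFMBT1 knockdown (circles) left of control shRNA (squares) for each of the 8 pairs. The groups lie apart for both Wwtr1 pairs and for Tead1, where the knockdown arrays are at -3.64 and -3.60 and the control arrays at -2.94 and -2.72.

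Other genes of the pathway, in lists drawn up for this work with 1 probe set (the brightest) per gene, gave few calls. Over all genes counted that way 2.17% were called, 1.02% higher and 1.15% lower, and 14.4% had an unadjusted p under 0.05. Of 29 tested genes of the kinase cascade and its upstream regulators (33 listed) 0 rose and 0 fell, 7 had an unadjusted p under 0.05, and the median log2 difference was 0.15, beside 0.015 over all such genes. Mob1b, a LATS-activating adaptor, read 364.0 and 339.4 in the knockdown against 192.1 and 221.3 in the control (log2 difference 0.73, SE 0.20, limma adjusted p = 0.0864). Its second probe set gave 0.11, with 1 array of each group in the background range. Fat4, an atypical cadherin upstream of the pathway, read 105.0 and 163.5 in the knockdown against 23.0 and 69.4 in the control, where replicate 1 lay in the background range. Its log2 difference was 1.35 (SE 0.47, limma adjusted p = 0.180), and 0.79 to 1.92 with 1 array left out. Sav1, the scaffold of the upstream kinases, had a log2 difference of 0.32 (SE 0.13, limma adjusted p = 0.268). The second probe sets of Fat4 and Sav1 gave 0.097 and -0.063. On the other side stood Amot, which encodes angiomotin, with -0.52 (limma adjusted p = 0.179), its relative Amotl1 with -0.35 (limma adjusted p = 0.251) and Wwc1, which encodes the LATS regulator KIBRA, with -0.69 (limma adjusted p = 0.182). All 9 tested probe sets of these 3 genes had negative differences, against 50.7% of all probe sets tested. The 3 genes were named because their brightest probe set was negative, so this count is not added support. Of these 9 the Amotl1 probe set 1455247_at came nearest to the threshold, with -0.58 (SE 0.14, limma adjusted p = 0.0597). Wwc1 passed without knockdown replicate 1 (adjusted p = 0.0485), Amot without knockdown replicate 2 (adjusted p = 0.0236) and Fat4 without control replicate 2 (adjusted p = 0.0433). Each missed the threshold without any other array, with adjusted p up to 0.569, 0.629 and 0.562.

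Of the 4 VGLL genes, whose products compete with YAP for TEAD proteins, Vgll3 and Vgll2 lay near the threshold in opposite directions. Of 21 tested cofactors and regulators of YAP and TEAD (24 listed) 0 rose and 0 fell, 5 had an unadjusted p under 0.05 (14.4% over all genes), and the median log2 difference was 0.064. Vgll3 read 459.8 and 471.4 in the knockdown against 694.5 and 773.5 in the control (log2 difference -0.64, SE 0.15, limma adjusted p = 0.0576). The 2 further probe sets of Vgll3 gave -0.46 and 0.03. Vgll2, a TEAD cofactor of skeletal muscle, read 1029.7 and 1139.3 in the knockdown against 702.9 and 769.6 in the control (log2 difference 0.55, SE 0.14, limma adjusted p = 0.0755). Neither pair of groups overlapped. Vgll4 differed by 0.096 with overlap (limma adjusted p = 0.869), and Vgll1 lay in the background range on all 4 arrays and was not tested. Ywhab, a 14-3-3 protein gene of the family that holds phosphorylated YAP in the cytoplasm, had a log2 difference of 0.44 (SE 0.12, limma adjusted p = 0.0797). Its other probe sets gave -0.014 to 0.49, the lowest with overlap between the groups. These 3 genes, and no other of the list, were called when each array was centred on its median, with adjusted p = 0.0466 for Vgll3, 0.0301 for Vgll2 and 0.0211 for Ywhab. They were also called without knockdown replicate 1 (0.0339, 0.0195 and 0.0366), and Vgll3 without knockdown replicate 2 (0.0212). Without control replicate 1 or 2 the adjusted p was 0.135 and 0.261 for Vgll3, 0.354 and 0.144 for Vgll2, and 0.511 and 0.0995 for Ywhab. Smad2, a TGF-beta signal transducer gene, differed by 0.39 (limma adjusted p = 0.203), Runx1 by -0.40 (limma adjusted p = 0.200) and Irf2bp2 by -0.27 (limma adjusted p = 0.410). A second Smad2 probe set gave 1.24, with 1 control array in the background range. The other probe sets gave -1.13 to -0.067 for Runx1 and -0.74 to 0.14 for Irf2bp2.

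Among 25 tested YAP and TEAD target genes (27 listed, without Ankrd1, Amotl2 and Lats2) 1 rose and 0 fell. That was Ccn2, which encodes the matricellular protein CTGF and read 2668.8 and 3180.0 in the knockdown against 1309.2 and 1429.8 in the control (log2 difference 1.08, SE 0.13, limma adjusted p = 0.00217). Ccn1 (CYR61), named after its values were seen because it is the target most often read beside Ccn2, had 2868.5 and 3245.1 in the knockdown against 2816.2 and 3132.2 in the control (log2 difference 0.04, SE 0.12, limma adjusted p = 0.926). Both knockdown values of Ccn2 exceeded both controls, while the groups overlapped for Ccn1. The Ccn1 values are from the brightest of its 4 probe sets, 1416039_x_at, and the others are not given. The name of 1416039_x_at marks it as open to signal from other transcripts. The list's median log2 difference was -0.076, with 11 positive and 14 negative, and 9 genes had an unadjusted p under 0.05, against 14.4% of all genes. Slit2, for a guidance ligand, differed by 0.50 (limma adjusted p = 0.184) and the kinase gene Nuak2 by 0.41 (limma adjusted p = 0.231). Myof, which encodes the membrane repair and fusion protein myoferlin, differed by -0.43 (limma adjusted p = 0.0963), Dock5, for a Rac exchange factor, by -0.53 (limma adjusted p = 0.113) and the receptor kinase gene Axl by -0.35 (limma adjusted p = 0.154), though a second Axl probe set gave 0.27. Further Dock5 probe sets gave -0.66 and -0.85 (limma adjusted p = 0.0963 and 0.0586), both without overlap. Without knockdown replicate 1 Myof (adjusted p = 0.0256) and Slit2 (0.0385) passed, and without knockdown replicate 2 Dock5 did (0.0490). Without control replicate 1 or 2 the adjusted p was 0.286 and 0.366 for Myof, 0.605 and 0.218 for Slit2, and 0.339 and 0.340 for Dock5.

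A list of 10 muscle genes drawn up as candidates for control through MCAT elements, which are known in the promoters of Tnnt2 and Acta1, held most of the calls. Of 8 tested, 3 rose and 0 fell, against 1.02% higher and 1.15% lower over all genes by brightest probe set. The 3 were the alpha-actin genes Actc1 (log2 difference 2.14, SE 0.15, limma adjusted p = 7.21e-05) and Acta1 (1.70, SE 0.15, limma adjusted p = 5.51e-04), and the slow troponin I gene Tnni1 (3.26, SE 0.34, limma adjusted p = 8.27e-04). Tnni1 read 685.6 and 660.5 in the knockdown against 94.6 and 30.5 in the control, where replicate 2 lay in the background range and gives only a bound. Its log2 difference was 2.64 to 3.89 with 1 array left out. Earlier results of these data had already shown these 3 genes to be higher, so their count is not independent evidence of a direction. The smooth muscle actin gene Acta2, another gene with MCAT elements, read 22679.0 and 22725.2 in the knockdown against 22264.8 and 24130.7 in the control (log2 difference -0.03, SE 0.11, limma adjusted p = 0.934), and it was 0.01 with each array centred on its median. Chrng, the fetal acetylcholine receptor subunit gene, differed by -0.38 (SE 0.60, limma adjusted p = 0.823). It read 28.5 and 86.9 in the knockdown against 36.2 and 133.5 in the control, with replicate 1 of each group in the background range. Its other probe sets were too dim to test. Tnnt2 differed by 0.53 (limma adjusted p = 0.111) and the acetylcholine receptor subunit gene Chrnb1 by 0.48 (limma adjusted p = 0.124), both without overlap. Of the 8 differences 6 were positive and 2 negative, and 5 had an unadjusted p under 0.05, against 14.4% of all genes. The 6 markers of differentiating muscle that rose moved with Actc1, Acta1 and Tnni1, and their part in the rise was not tested.

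**Figure D4:**
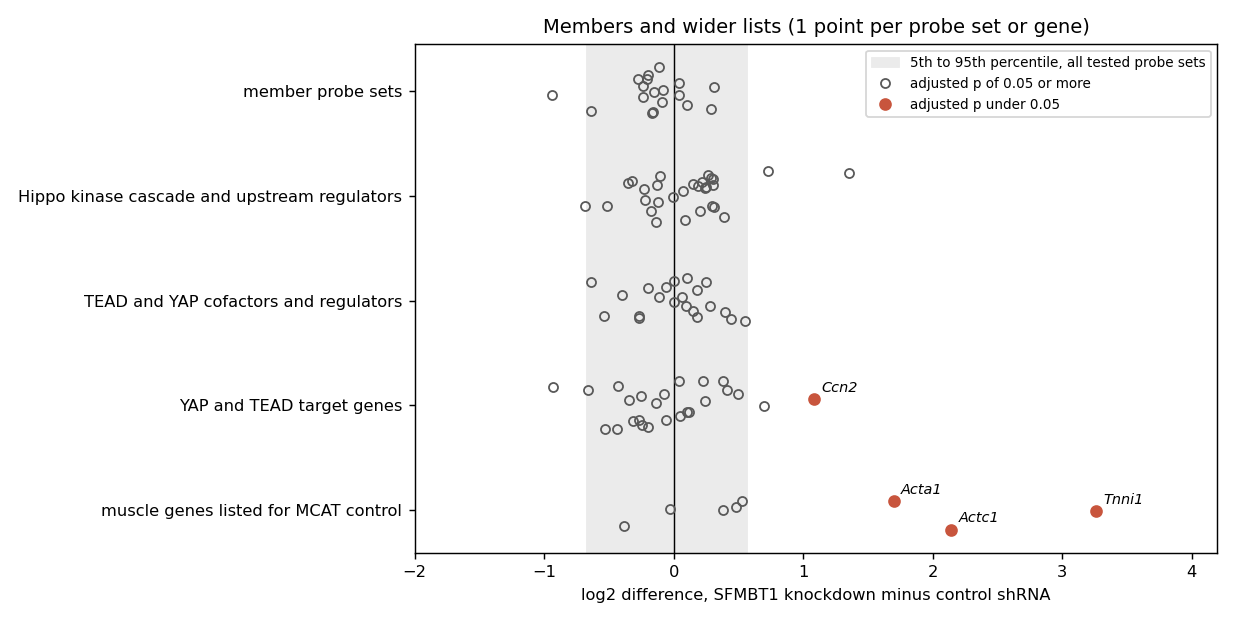
Log2 difference of signal (SFMBT1 knockdown minus control shRNA) for the 18 tested member probe sets and for each tested gene of the 4 wider lists, filled and named where the limma adjusted p was under 0.05, with a grey band from the 5th to the 95th percentile of all tested probe sets. Filled points are Ccn2 at 1.08 among the YAP and TEAD targets and Acta1, Actc1 and Tnni1 at 1.70 to 3.26 among the muscle genes, and the members have none.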

How the data were processed

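Each deposited column holds the intensity of every probe set on 1 array on a linear scale, which the authors obtained with MAS5 and GCOS according to the submitters' processing notes (no version stated). The notes and labels do not say how arrays were scaled, and the columns were used unchanged. The array annotation gave 34945 of the 45101 probe sets to 1 gene and 932 to several, it left 9160 unnamed, and 64 were controls. Symbols were checked by gene identifier in RefSeq (34741 matched, 0 changed). Signals were taken as log2(signal + 16). Single-gene probe sets whose mean log2 signal ranked in the top 60% (a signal of 57.3 or more) were tested with limma 3.58.1 in R 4.3.3 (lmFit, eBayes with a variance trend; 2 residual and 9.6 prior degrees of freedom), knockdown minus control, with Benjamini-Hochberg adjustment over 22893 probe sets. The fit was tested on simulated data with known changes of 2 sizes. It called 33.3% of the changes of 1 log2 unit and 0.6% of the smaller ones, and 7.12% of its calls were false. The number of arrays limits the precision. Every probe set of a member was used, and other genes were represented by their brightest probe set. All 10 members are named, as are the 3 tested genes of each wider list with the smallest p in each direction. The members and lists were chosen with earlier results of these data known. Promoter sequences are from RefSeq, and Tead1 and Tead4 had none in the table used.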

Additional observations from a re-analysis of the deposited data

How the results depend on the processing

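Of 236 values for member probe sets under 14 alternatives, 224 kept their direction and their side of the threshold, 3 (all Tead1 1423434_at) came under it and 9 turned sign. The count of members called was 1 with the filter at the upper 40% and 0 to 1 with 1 array left out. Leaving out 1 array gave -0.040 to 0.25 for Yap1 1448363_at, -0.33 to 0.0067 for Wwtr1 1437155_a_at, -0.48 to 0.015 for Lats1 1427679_at, -0.081 to 0.17 for Lats2 1419678_at, -0.21 to 0.028 for Ankrd1 1420992_at, -0.016 to 0.11 for Amotl2, -1.14 to 0.37 for Chrng and -0.088 to 0.028 for Acta2, and median centring gave 0.012 for Acta2. Over all probe sets 548 were called (40.1% of them higher), with 63 without the filter, 950 with the upper 40%, 0 without the variance trend (2913 at an unadjusted p under 0.05), 857 with the replicate block, 297 to 1429 with 1 array left out (1429 without knockdown replicate 1, 1359 without knockdown replicate 2 and 297 without control replicate 1) and 734 with median centring (54.6% higher). Calls in the kinase list were 1 with the upper 40% (Mob1b) and 0 to 1 with 1 array left out. In the cofactor list they were 3 with the upper 40%, median centring, quantile normalization or the replicate block, 1 with 1 probe set a gene, and 0 to 3 with 1 array left out. In the target list they were 0 without the trend (Ccn2 adjusted p = 0.197), 3 with the replicate block (Ccn2, Axl and Myof) and 1 to 3 with 1 array left out. In the muscle list they were 5 with median centring, 0 without the trend, 1 without probe sets shared between transcripts, where 4 genes were tested, and 3 to 4 with 1 array left out. The causes were not tested. The sample titles link same-numbered cultures only by their number. Their deviations from the group means correlated at 0.0095 across probe sets, which does not show whether they were handled together. The replicate block left 0 members called, while calls over all probe sets went from 548 to 857. Signals near the background limit give the untested Lats2 and Tead4 probe sets no usable difference.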
